A study of Mus musculus with 18 samples.

Results

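The E2F transcription factors and the pocket proteins that bind them were followed across 6 groups of cells labelled HL-1, a mouse line of atrial heart muscle cells that keeps dividing in culture. The members were the rows of the deposited read-count table with the symbols E2f1, E2f2, E2f3, E2f4, E2f5, E2f6, E2f7, E2f8, Rb1 and Rbl1. All 10 were found among the 29112 genes of the table, and all 10 passed the filter on low counts that left 15074 genes. The set was chosen because E2f4 was about 2-fold higher in high glucose than in vehicle in these same libraries, so all member values of high glucose against vehicle are given below as a description, without a test.

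The groups, with 3 libraries each, were miR-200a-3p mimic, negative control of the mimic (mimic control), miR-200a-3p inhibitor, negative control of the inhibitor (inhibitor control), high glucose and vehicle. The mimic, inhibitor and both control groups were transfected cells that were also in high glucose, and they were harvested 48 h after transfection. The high glucose and vehicle groups are labelled with a control genotype and carry no named reagent. The study set out to profile transcripts after raising or blocking miR-200a-3p, a microRNA of the miR-200 family, in a cell model of diabetic heart disease. The glucose concentration, the time in high glucose and whether a group's libraries are separate cultures are not given in the sources used here. Thus p-values reflect variation among these libraries alone, and that variation may be technical.

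E2F factors bind a GC-rich promoter element of genes for DNA replication and cell division, and set when cells enter S phase. E2f1, E2f2 and E2f3 activate such genes, E2f4, E2f5 and E2f6 are mainly repressors, and E2f7 and E2f8 are atypical repressors that bind DNA without a dimerisation partner and dampen E2f1. The pocket proteins, the retinoblastoma protein encoded by Rb1, p107 encoded by Rbl1 and p130 encoded by Rbl2, hold E2Fs in a repressive state until cyclin-dependent kinases phosphorylate them. Adult cardiomyocytes have largely left the cell cycle, and E2F and pocket protein activity is part of that arrest, whereas HL-1 cells divide in culture.

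On GRCm39 (GENCODE M39), E2f4 lies at chr8:106024243-106032003 on the plus strand and E2f1 at chr2:154401326-154411812 on the minus strand. E2f2 lies at chr4:135899585-135923368 (plus), E2f3 at chr13:30090558-30170046 (minus), E2f7 at chr10:110581300-110623245 (plus) and E2f8 at chr7:48516176-48531452 (minus). The pocket protein genes lie at chr14:73421113-73563507 (Rb1, minus) and chr2:156987813-157046475 (Rbl1, minus). E2f5 lies at chr3:14643676-14672404 and E2f6 at chr12:16860874-16890766, both on the plus strand.

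The microRNA that was raised or blocked is shown first, and its seed is the part that pairs with target transcripts. The seed, bases 2 to 8, is in capitals, and the sequence is from RefSeq (GRCm38.p6, chromosome 4).
mmu-miR-200a-3p: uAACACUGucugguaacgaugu

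In the longest annotated 3′ UTR of each member (GENCODE M39, GRCm39, the build the reads were aligned to), an 8mer match to this seed was found in E2f3 alone. The E2f3 3′ UTR of 3328 nt held 2 seed matches, both in exon 7 of 7 on the minus strand of chromosome 13. The 8mer lies at chr13:30091257-30091264 and the shorter match, of 7 bases, at chr13:30093812-30093818. Each is printed with its flanks, and the capitals mark the match.
E2f3 8mer: gagctgtcaaaCAGTGTTAggcgtgtgttt
E2f3 7-base match: aacgtgtatcgCAGTGTTgtcccttcctac
Among the 12918 tested genes with an annotated 3′ UTR, 6.02% held an 8mer and 26.1% any seed match. Among the 3368 genes with a 3′ UTR of 2500 to 4500 nt, near the length of that of E2f3, the shares were 9.38% and 40.5%. Seed matches of 7 bases were also found in E2f6 (2 matches) and Rb1 (1 match), but only in annotated transcripts of 4 and 2 exons, not in the canonical ones. The canonical 3′ UTRs of E2f6 (1368 nt) and Rb1 (1820 nt) held 0 matches, as did the longest 3′ UTRs of the other 7 members. E2f3 was not called with the mimic, at a log2 fold change of -0.01 ± 0.062 (SE), nor with the inhibitor, at 0.11 ± 0.063.

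Several E2F genes are themselves known E2F targets, so their promoters were searched for 4 words of 8 letters, TTTCCCGC, TTTCGCGC, TTTGCCGC and TTTGGCGC, on both strands. The windows ran from 250 bases before to 50 bases after the start, from RefSeq (GRCm38.p6). Of the 10 members, 7 had an entry, with 9 windows in all, and 4 genes held a word, namely E2f2, E2f3, E2f7 and Rbl1. Over all genes with an entry, 704 of 27025 (2.60%) held a word. Among the G1/S target genes described below 12 of 22 did (54.5%), and among the G2/M target genes 1 of 17 (5.88%). The E2f1 window begins inside an annotated E2f1 transcript, so it need not be the main start of that gene. The stretches of 100 bases below hold the word in capitals, and a match is a description of letters, not of binding.
Rbl1, bases 100 to 1 before the start, chr2:157204535-157204634, minus strand: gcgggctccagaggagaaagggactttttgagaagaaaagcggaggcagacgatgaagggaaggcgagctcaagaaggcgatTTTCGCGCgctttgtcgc
E2f3, bases 100 to 1 before the start, chr13:29986064-29986163, minus strand: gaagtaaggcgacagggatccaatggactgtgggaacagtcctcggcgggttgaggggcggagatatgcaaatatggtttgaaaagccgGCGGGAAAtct
E2f7, bases 250 to 151 before the start, chr10:110745189-110745288, plus strand: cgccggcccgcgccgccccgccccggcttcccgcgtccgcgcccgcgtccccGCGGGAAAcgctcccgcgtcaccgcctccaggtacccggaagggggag
In Rbl1 the word reads forward and ends 11 bases before the start. In E2f3 and E2f7 it lies on the opposite strand, and it ends 4 and 191 bases before the start. The E2f2 word, TTTGGCGC, lies after the start.

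Library totals ran from 33655916 to 37928790 reads, so 3 reads correspond to 0.0791 to 0.0954 CPM (read counts scaled to library size), and every member lay above that floor in every library. The least covered member, E2f2, had 172 reads over the high glucose libraries. Mimic replicate 2 stood apart. Its summed level of 11 macrophage marker genes was 1453 CPM, against 57.1 and 58.4 CPM in mimic replicates 1 and 3 and 69.6 to 74.9 CPM in mimic control. The members' calls and the list counts on the mimic are therefore also given without it; beyond that, the part of these markers in the results was not tested. Of 9 cardiomyocyte markers, 8 are in the table and their summed level was 31.7 to 86.0 CPM over all libraries. Tnnt2, at 15.6 to 76.2 CPM, and Gata4, at 7.98 to 14.3 CPM, held most of it. Nppa, the gene for atrial natriuretic peptide and a marker of atrial cells, was at 0 reads in all libraries of 4 groups and at most 1 elsewhere. Myh6, Tnni3 and Actc1 also failed the filter, with at most 7, 18 and 14 reads in any library. The summed level of 7 fibroblast markers was 1067 to 1142 CPM with mimic, 1169 to 1192 CPM in mimic control, 2319 to 2445 CPM with inhibitor, 2378 to 2486 CPM in inhibitor control, 10517 to 11956 CPM with high glucose alone and 10007 to 10693 CPM with vehicle. In RNA from whole cultures, fewer cells of a type and less RNA per cell cannot be told apart.

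**Figure D1:**
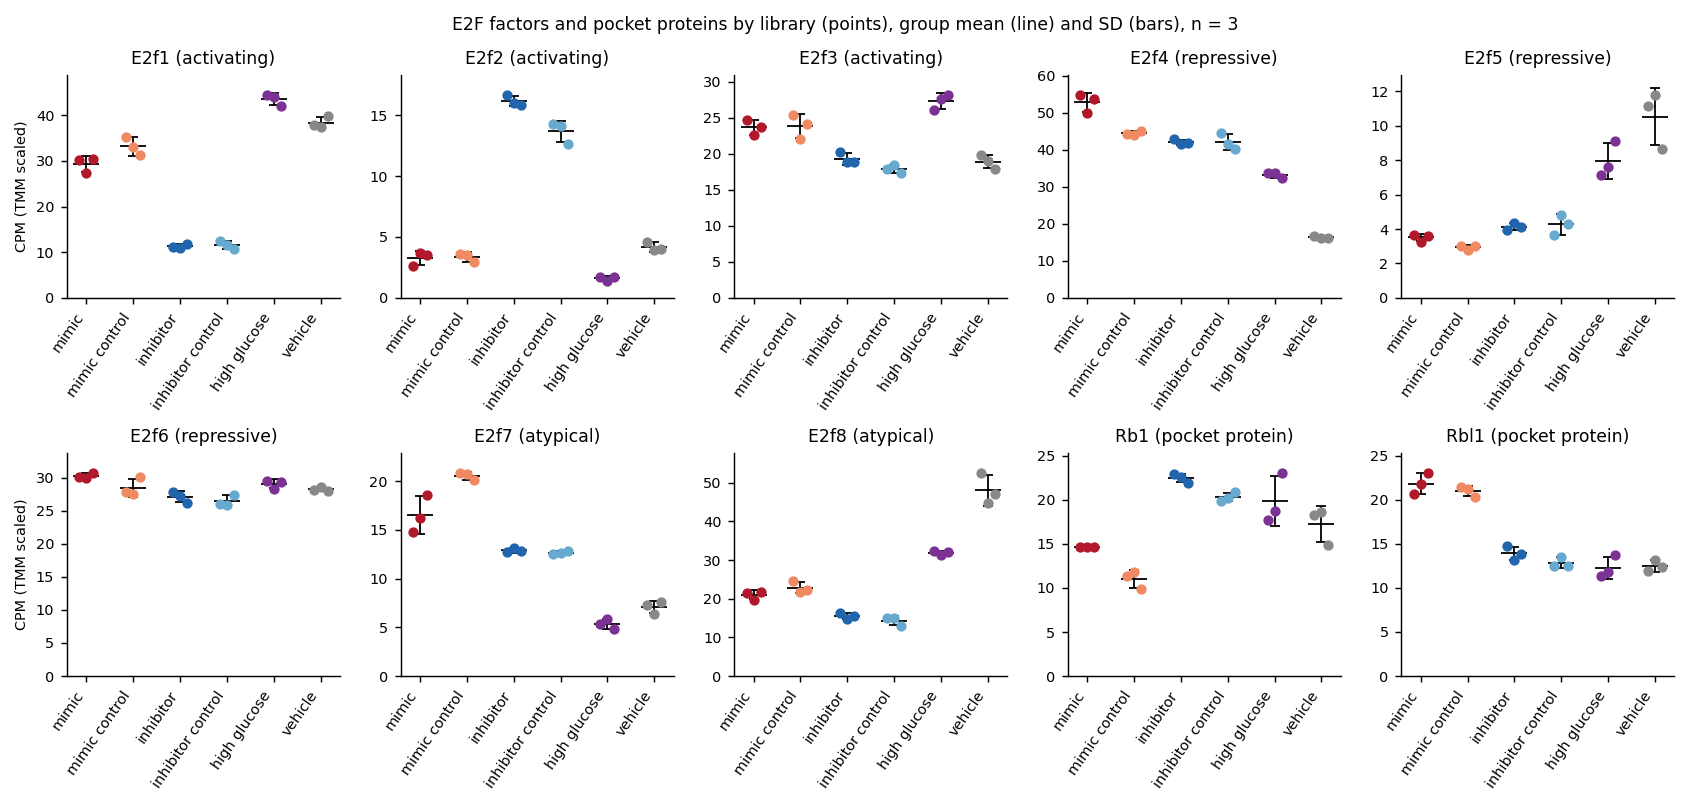
Level of each member in CPM (scaled by TMM) for each library in the 6 groups, with the group mean as a line and the SD as bars (n = 3); each panel has its own axis from 0. In the inhibitor and inhibitor control groups E2f1 sits between 10.6 and 12.4 CPM and E2f2 between 12.7 and 16.7 CPM, while E2f4 is lowest in vehicle and highest with mimic.

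Among the activating factors, E2f1 was at 30.2, 27.3 and 30.4 CPM with mimic, 35.3, 33.1 and 31.2 CPM in mimic control, 11.2, 10.9 and 11.8 CPM with inhibitor, 12.4, 11.7 and 10.6 CPM in inhibitor control, 44.5, 44.0 and 42.1 CPM in high glucose, and 37.8, 37.4 and 39.8 CPM in vehicle. The inhibitor and inhibitor control groups were the lowest and overlapped each other, and every further step up, to mimic, mimic control, vehicle and high glucose, had no shared range. E2f2, also an activator, was at 2.65, 3.64 and 3.53 CPM with mimic, 3.62, 3.50 and 2.91 CPM in mimic control, 16.7, 16.0 and 15.9 CPM with inhibitor, 14.3, 14.1 and 12.7 CPM in inhibitor control, 1.73, 1.42 and 1.68 CPM in high glucose, and 4.61, 3.90 and 4.02 CPM in vehicle. Inhibitor and inhibitor control lay above all other libraries and high glucose below all others. E2f3 varied least of the 3, with group means from 17.9 CPM in inhibitor control to 27.3 CPM in high glucose. At the low end its inhibitor control and vehicle libraries overlapped, as did vehicle and inhibitor, and mimic overlapped mimic control above them.

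Among the repressive factors, E2f4, which carries most pocket protein complexes in resting cells, was at 54.9, 49.97 and 53.8 CPM with mimic, 44.3, 44.1 and 45.2 CPM in mimic control, 42.8, 41.5 and 41.9 CPM with inhibitor, 44.6, 41.6 and 40.3 CPM in inhibitor control, 33.7, 33.8 and 32.3 CPM in high glucose, and 16.7, 16.1 and 16.1 CPM in vehicle. Vehicle was the lowest group and mimic the highest, each clear of its neighbour, while inhibitor, inhibitor control and mimic control formed a chain of overlapping groups. E2f5, the other pocket-bound repressor, was at 3.65, 3.26 and 3.62 CPM with mimic, 2.99, 2.80 and 3.03 CPM in mimic control, 3.94, 4.34 and 4.10 CPM with inhibitor, 3.66, 4.82 and 4.31 CPM in inhibitor control, 7.12, 7.63 and 9.15 CPM in high glucose, and 11.1, 11.8 and 8.64 CPM in vehicle. Its untransfected libraries lay above all transfected ones, and high glucose overlapped vehicle. Of the exonic bases of E2f5, 43.4% are shared with exons of Rbis on the other strand, so E2f5 counts are uncertain where strand was not used in counting. Rbis itself averaged 28.6 ± 2.76 CPM in high glucose and 27.4 ± 2.86 CPM for vehicle (SD, n = 3 each), with means of 45.3 to 55.9 CPM in the transfected groups. Rbis was thus lower in the untransfected groups, where E2f5 was higher. With the mimic over its control both had positive log2 fold changes, 0.12 for Rbis and 0.26 for E2f5, and neither was called. The part of shared reads in the E2f5 values was not tested. E2f6, which represses through polycomb proteins and binds no pocket protein, was the steadiest member, with all 18 libraries between 25.9 and 30.7 CPM.

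Among the atypical repressors, E2f7 was at 14.7, 16.2 and 18.6 CPM with mimic, 20.8, 20.7 and 20.1 CPM in mimic control, 12.7, 13.1 and 12.8 CPM with inhibitor, 12.5, 12.6 and 12.9 CPM in inhibitor control, 5.36, 5.84 and 4.79 CPM in high glucose, and 7.31, 6.35 and 7.56 CPM in vehicle. All transfected libraries lay above all untransfected ones. E2f8, its close relative, was at 21.6, 19.6 and 21.7 CPM with mimic, 24.6, 21.8 and 22.3 CPM in mimic control, 16.2, 14.7 and 15.4 CPM with inhibitor, 14.9, 15.1 and 13.03 CPM in inhibitor control, 32.3, 31.3 and 32.1 CPM in high glucose, and 52.5, 44.6 and 46.9 CPM in vehicle. Vehicle and high glucose were its highest groups, and inhibitor and inhibitor control its lowest. Of the exonic bases of E2f8, 20.2% are shared with Gm2788 on the other strand. For E2f3, described above, the share was 12.1%, with Gm60559, and for Rbl1 it was 4.63%, with Gm14277 and Gm75686. For E2f7 and E2f4 it was 0.955% and 0.329%.

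Among the pocket proteins, Rb1 was at 14.6, 14.6 and 14.7 CPM with mimic, 11.3, 11.8 and 9.89 CPM in mimic control, 22.9, 22.5 and 21.9 CPM with inhibitor, 19.9, 20.2 and 20.9 CPM in inhibitor control, 17.7, 18.8 and 23.0 CPM in high glucose, and 18.3, 18.6 and 14.9 CPM in vehicle. Mimic control was the lowest group and the inhibitor group had the highest mean. Rbl1 was at 20.7, 21.8 and 23.0 CPM with mimic, 21.5, 21.3 and 20.3 CPM in mimic control, 14.7, 13.2 and 13.9 CPM with inhibitor, 12.5, 13.5 and 12.5 CPM in inhibitor control, 11.3, 11.8 and 13.7 CPM in high glucose, and 11.9, 13.2 and 12.3 CPM in vehicle. Its mimic and mimic control libraries overlapped each other and lay above all others. Rbl2, the remaining pocket protein and no member, was lowest in those groups, with 13.8, 13.7 and 13.3 CPM with mimic, 10.96, 9.25 and 10.8 CPM in mimic control, 24.6, 23.7 and 22.9 CPM with inhibitor, 21.9, 27.0 and 24.2 CPM in inhibitor control, 42.4, 40.1 and 47.5 CPM in high glucose, and 41.7, 44.2 and 38.6 CPM in vehicle.

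With the mimic against its control, 2 members rose and 2 fell. Rb1 was 1.33-fold higher (log2 fold change 0.41 ± 0.0951, adjusted p = 0.00282 by edgeR's quasi-likelihood test, Benjamini-Hochberg over 15074 genes) and E2f4 1.19-fold higher (0.25 ± 0.0472, adjusted p = 0.000614). E2f7 fell to 0.804 of mimic control (-0.31 ± 0.0789, adjusted p = 0.00499) and E2f1 to 0.883 (-0.18 ± 0.0619, adjusted p = 0.0311). In each of these 4 genes the 3 mimic libraries lay on one side of all 3 mimic control libraries. The same held for E2f5 (above) and E2f8 (below), which were not called. Of all genes tested, 20.7% had the mimic libraries all above and 24.1% all below. Over all genes tested, 15.8% were called higher and 18% lower, so 2 and 2 of 10 are near the share of all genes.

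Rb1, E2f4 and E2f7 were called under all 26 alternative settings, with adjusted p up to 0.0224, 0.00578 and 0.0252, and the E2f7 log2 difference was -0.16 with log2(FPKM + 1). Without mimic replicate 2 the adjusted p was 0.00503 for Rb1, 0.000476 for E2f4 and 0.00939 for E2f7. The E2f1 call ended without mimic replicate 2 (log2 fold change -0.14, adjusted p = 0.124), without mimic control replicate 1 (0.14) or replicate 2 (0.0583), with upper quartile scaling (0.0588) and with limma on FPKM values, which are reads per transcript length and library size (0.166 and 0.218). Of the exonic bases of Rb1, 7.43% are shared with Lpar6 and Rcbtb2 on the other strand, and these averaged 1.24 ± 0.512 and 4.91 ± 0.885 CPM with mimic (SD, n = 3), below the 14.6 to 14.7 CPM of Rb1 itself. Lpar6 rose with the mimic (0.74, adjusted p = 0.0289 by edgeR), but was not called without mimic replicate 2 (0.37, adjusted p = 0.288), and Rcbtb2 was not called (0.22, 0.207). Between the controls both rose, in inhibitor control over mimic control, by 0.97 (adjusted p = 0.0016) and 0.34 (0.0268). That is the direction of Rb1 in both comparisons. In high glucose over vehicle Lpar6 was at -0.21 and Rcbtb2 at -0.56, while Rb1 was at 0.20. In mimic control over high glucose Lpar6 was at 0.35 and Rcbtb2 at -0.28, with Rb1 at -0.85. In inhibitor control over high glucose the values were 1.32, 0.06 and 0.03. The part of shared reads in the Rb1 values was not tested. The 6 members that were not called had log2 fold changes from -0.13 (E2f8) to 0.26 (E2f5, adjusted p = 0.161), and of them E2f6 (0.09 ± 0.0478) was called higher by limma (0.01 and 0.0184). The cardiomyocyte marker sum was 33.3 to 36.6 CPM with mimic and 31.7 to 33.0 CPM in mimic control, with 1 marker called higher and 2 lower, and their part was not tested.

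**Figure D2:**
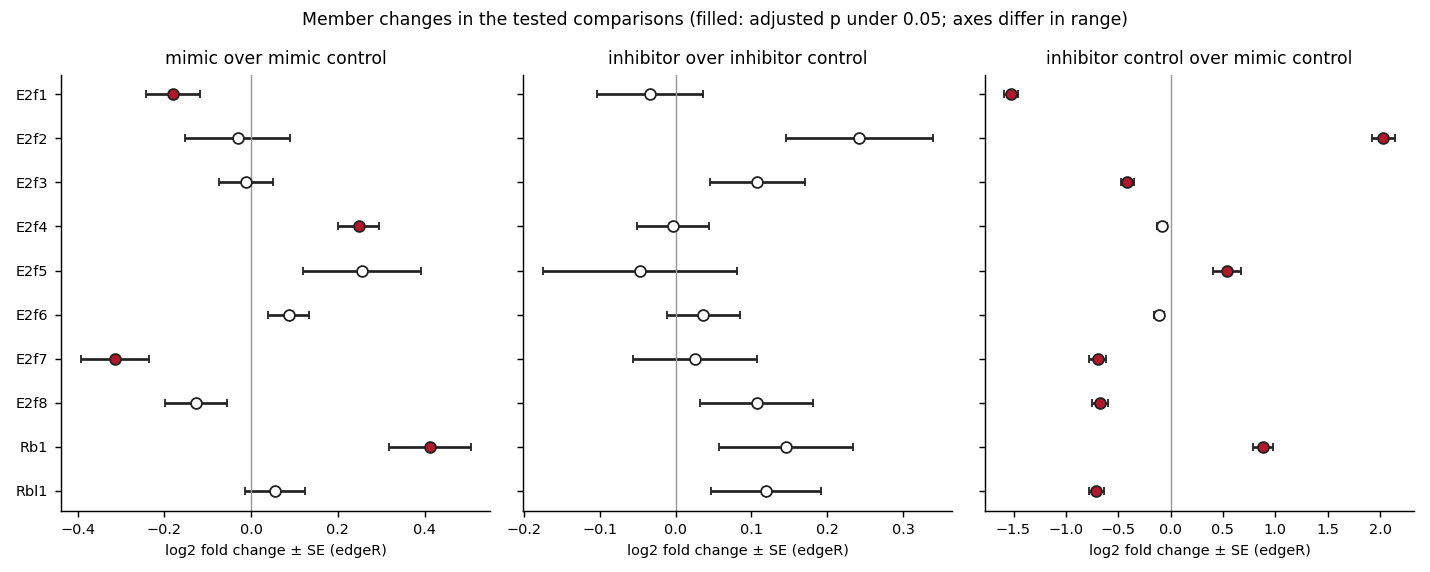
Log2 fold change with its SE (edgeR, 3 libraries a group) for the 10 members in mimic over mimic control, inhibitor over inhibitor control, and inhibitor control over mimic control; filled points have an adjusted p under 0.05, and the axes differ in range. Filled points number 4, 0 and 8, and E2f1 (-1.52) and E2f2 (2.03) lie farthest from 0 in the comparison of the controls.

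With the inhibitor against its control, 0 of 10 members and 0% of all genes were called in either direction by edgeR, and the adjusted p of every member was 1. At an unadjusted p under 0.05 there were 447 genes, among them 1 member, E2f2, at a log2 fold change of 0.24 ± 0.097. DESeq2 and limma on FPKM values called 0 genes, and edgeR without the filter on low counts called 26, no member among them. The 3 inhibitor libraries lay above the 3 control libraries for E2f2, and likewise for Rb1 (0.15 ± 0.0886) and E2f3, and they overlapped for the other 7 members. Of all genes tested, 5.09% lay above without overlap and 5.47% below.

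Between the negative controls, inhibitor control over mimic control, 8 of 10 members were called, 3 higher and 5 lower, where 38.5% of all genes were called higher and 35.7% lower. E2f2 was 4.09-fold higher (log2 fold change 2.03 ± 0.11, adjusted p = 1.84e-12 by edgeR), Rb1 1.84-fold higher (0.88 ± 0.0934, 4.32e-08) and E2f5 1.45-fold higher (0.54 ± 0.134, 0.00126). E2f1 fell to 0.349 of mimic control (-1.52 ± 0.0662, adjusted p = 8.15e-14). Rbl1 fell by 0.71, E2f7 by 0.70, E2f8 by 0.68 and E2f3 by 0.41 on the log2 scale. E2f4 was not called at -0.08 ± 0.0476 (adjusted p = 0.142), was called lower only without inhibitor control replicate 1 (0.0223), and took the other sign with upper quartile scaling and with limma (0.03 to 0.05). E2f6, at -0.11 ± 0.0481, lay at the threshold (adjusted p = 0.0514), was called lower in 15 of 26 alternatives and was at 0.02 to 0.03 with limma. Of the activating factors, E2f2 thus rose and E2f1 and E2f3 fell. With log2(FPKM + 1) the difference was 1.22 for E2f2, -0.22 for E2f3, -0.35 for E2f7, -0.41 for E2f8 and -0.42 for Rbl1. Neither control is untreated, and whether they were handled together is not given in the sources used here. Cell type markers differed as well. The fibroblast sum was higher in inhibitor control, as given above, while Dcn of that list fell (-0.58, adjusted p = 3.27e-05 by edgeR). The cardiomyocyte sum was 68.6 to 86.0 CPM in inhibitor control and 31.7 to 33.0 CPM in mimic control. Tnnt2 alone was at 59.5 to 75.8 CPM and 15.6 to 17.5 CPM in these groups. Of 4 cardiomyocyte markers tested, 1 was called higher and 2 lower. Tnnt2 was higher (2.03, adjusted p = 5.39e-13 by edgeR) and Nkx2-5 lower (-2.81, 2.14e-08). The part of these markers in the member differences was not tested.

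The effect of the mimic over its control was set against that of the inhibitor over its control as a difference of the log2 fold changes. E2f4 differed, by 0.25 ± 0.067 (adjusted p = 0.019 by edgeR), with 0.25 for the mimic and -0.003 for the inhibitor, where 4.63% of all genes had a higher and 8.59% a lower difference. This call ended without the filter on low counts (adjusted p = 0.08) and without mimic replicate 1 (0.0524), mimic replicate 3 (0.0503) or mimic control replicate 1 (0.0528), and without mimic replicate 2 the difference was 0.28 (0.0146). E2f7, at -0.34 ± 0.113 (adjusted p = 0.0536), was called in 9 of 26 alternatives. The other 8 members were not called, with differences from -0.27 (E2f2) to 0.30 (E2f5).

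In high glucose against vehicle, the comparison that chose the set, 3 members had all 3 high glucose libraries above all vehicle libraries and 3 had them below. Over all genes tested the shares of such genes were 16.3% and 18.3%, and nothing is read from the members' count here. E2f4 was 2.04-fold higher in high glucose (log2 fold change 1.03 ± 0.0507), E2f3 1.44-fold (0.53 ± 0.0615) and E2f1 1.14-fold (0.18 ± 0.0604). E2f2 was at 0.386 of vehicle (-1.37 ± 0.128), E2f8 at 0.664 (-0.59 ± 0.068) and E2f7 at 0.753 (-0.41 ± 0.0916). E2f5 (-0.40 ± 0.116), Rb1 (0.20 ± 0.0898), E2f6 (0.04 ± 0.0476) and Rbl1 (-0.02 ± 0.0732) had overlapping libraries. With log2(FPKM + 1) the difference was 0.92 for E2f4, -0.49 for E2f2 and -0.17 for E2f7, the last pair moving by more than 1.5 times. E2f2 and E2f7 lay at 0.29 to 0.94 FPKM in these libraries, below the 1 that is added. The difference of Rb1 was 0.11 without vehicle replicate 3 and 0.08 without high glucose replicate 3.

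Each negative control can also be set beside untransfected cells in high glucose. The high glucose libraries are those of the comparison above, so the values are again a description. In mimic control over high glucose, 4 members had all libraries higher and 5 all lower, where the shares over all genes were 39.8% and 40.6%. The log2 differences were 1.95 for E2f7, 1.05 for E2f2, 0.77 for Rbl1 and 0.42 for E2f4, and -1.44 for E2f5, -0.85 for Rb1, -0.48 for E2f8, -0.39 for E2f1 and -0.19 for E2f3. On FPKM values that of E2f4 was 0.24 or 0.25 by pseudocount and that of E2f3 -0.30 or -0.35, and with log2(FPKM + 1) those of E2f2, E2f7 and Rbl1 were 0.27, 0.93 and 0.44. In inhibitor control over high glucose, 3 members had all libraries higher and 5 all lower, where the shares over all genes were 40.7% and 40%. The log2 differences were 3.09 for E2f2, 1.25 for E2f7 and 0.34 for E2f4, and -1.91 for E2f1, -1.15 for E2f8, -0.90 for E2f5, -0.61 for E2f3 and -0.14 for E2f6. With log2(FPKM + 1) those of E2f2 and E2f7 were 1.49 and 0.58. In high glucose these 2 genes lay at 0.29 to 0.64 FPKM, below the 1 that is added. Both comparisons share the high glucose libraries, and in both E2f7, E2f2 and E2f4 stood higher and E2f1, E2f3, E2f5 and E2f8 lower. Transfected and untransfected cells also differed in fibroblast marker sums, at most 2486 CPM in transfected and at least 10007 CPM in untransfected libraries. Col3a1 held most of the untransfected sums, at 8412 to 9666 CPM in those libraries and 571 to 1599 CPM in transfected ones. Of 6 fibroblast markers tested, 5 stood lower and 1, Thy1, higher without overlap in mimic control over high glucose. In inhibitor control over high glucose 5 stood lower and 0 higher. The part of these markers in the member differences was not tested.

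Levels can be compared between genes only per transcript length, so the FPKM values were used for the make-up of the E2F transcripts. The summed level of the 8 E2F genes stayed between 37.4 FPKM (inhibitor control) and 49.0 FPKM (high glucose) on group average. E2f4 made up 44.1 ± 0.55% of it with mimic, 38.7 ± 1.0% in mimic control, 44.0 ± 0.081% with inhibitor, 45.1 ± 1.2% in inhibitor control, 27.8 ± 0.71% in high glucose and 15.2 ± 0.17% in vehicle (SD, n = 3 each). E2f1 made up 19 ± 0.34% with mimic, 22.4 ± 1.1% in mimic control, 9.20 ± 0.43% with inhibitor, 9.63 ± 0.45% in inhibitor control, 28.3 ± 0.83% in high glucose and 27.9 ± 1.6% in vehicle. E2f1 thus held the largest share in vehicle, E2f1 and E2f4 were about level in high glucose, and E2f4 held the largest share in all 4 transfected groups. E2f8 made up 20.2 ± 1.2% in vehicle and at most 12.01% elsewhere.

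The summed FPKM of E2f1 to E2f3 over that of E2f4 to E2f6 was 0.496 ± 0.0045 with mimic, 0.629 ± 0.043 in mimic control, 0.431 ± 0.0081 with inhibitor, 0.403 ± 0.014 in inhibitor control, 0.827 ± 0.02 in high glucose and 0.943 ± 0.072 in vehicle. The libraries did not overlap between mimic and mimic control, between inhibitor and inhibitor control, or between high glucose and vehicle. In mimic control this ratio was 0.674, 0.625 and 0.587 by library, a wider spread than among the mimic libraries, at 0.493, 0.493 and 0.501. The values are transcript ratios and say nothing of protein, and since the set was chosen on E2f4 they carry no test.

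**Figure D3:**
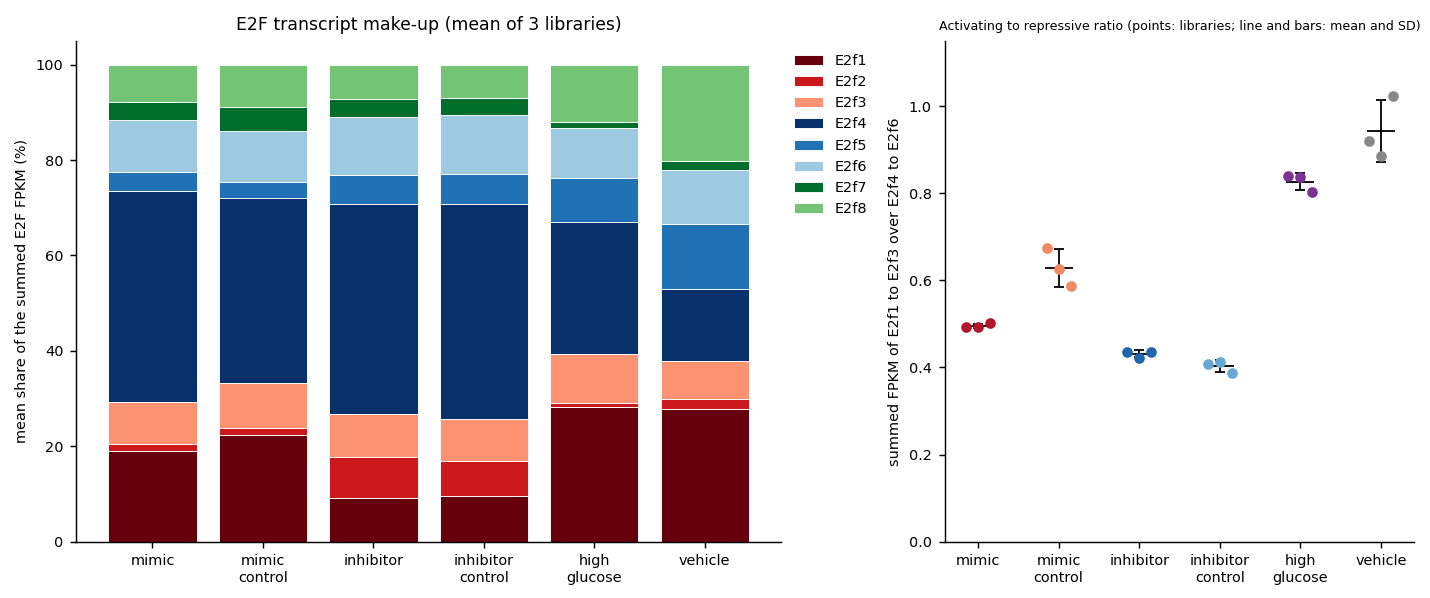
Left, mean share of each E2F gene in the summed E2F FPKM by group; right, summed FPKM of E2f1 to E2f3 over E2f4 to E2f6 for each library, with the group mean and SD (n = 3). E2f4 makes up 15.2% in vehicle and 38.7% to 45.1% in the transfected groups, and the ratio is highest in vehicle (0.943) and lowest in inhibitor control (0.403).

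Genes that E2Fs act on or with were read from lists chosen with earlier results of these data known, so no list was tested as a set and counts are to be read against all genes. Of all genes, 15.8% rose and 18% fell with the mimic, 38.5% rose and 35.7% fell in inhibitor control over mimic control, and 4.63% had a higher and 8.59% a lower difference of effects. Without mimic replicate 2, 1734 of 15308 genes were called higher and 2277 lower with the mimic. The list counts without that library are to be read against these. Of 28 G1/S target genes, which load and start replication forks and make nucleotides, 13 fell and 1 rose with the mimic against its control (median log2 fold change -0.15, against 0.0046 over all genes). Mcm5 (-0.49 ± 0.049, adjusted p = 1.57e-06 by edgeR), Mcm10 (-0.45) and Mcm2 (-0.42) were the lowest of those called. Mcm5 and Mcm2 encode subunits of the replicative helicase. Ccne2, cyclin E2, was the gene that rose (0.49 ± 0.098). Without mimic replicate 2, 13 were called lower and 2 higher. Between the controls, inhibitor control over mimic control, all 28 fell (median -1.39, against 0.04 over all genes), by 2.62 for Mcm5, 2.57 for Cdt1, the licensing factor, and 2.46 for Mcm3 and Mcm10. Other settings called 26 to 28 lower. In the difference of mimic and inhibitor effects 12 were lower, led by Cdc6 (-0.62) and Mcm5 (-0.61), and other settings gave 7 to 14.

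Most G1/S genes stood higher in both controls than in high glucose without transfection. Of the activating factors, E2f2 also stood higher in both comparisons, and E2f1 and E2f3 stood lower. In mimic control over high glucose 26 of 28 stood higher without overlap and 1, Ccne1 (cyclin E1, -1.13), lower, where 39.8% and 40.6% of all genes did (median 2.24), with Mcm5 and Mcm3 at 4.44 and Mcm10 at 4.23. In inhibitor control over high glucose 20 stood higher and 4 lower, where 40.7% and 40% of all genes did (median 0.92), with Ccna2 and Chek1 at 2.47 and Ccne1 at -2.50. In high glucose over vehicle 12 stood higher and 3 lower, where 16.3% and 18.3% of all genes did (median 0.21), with Brca1 at 0.91 and Ccna2 at 0.75.

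The 20 G2/M target genes, for mitosis and known as targets of the DREAM complex of E2f4, pocket proteins and MuvB, included 10 that fell and 5 that rose in inhibitor control over mimic control (median -0.17). Cenpf, a kinetochore protein, rose by 1.27 ± 0.071 (adjusted p = 2.9e-12 by edgeR) and Ccnb2, cyclin B2, by 0.73, while Aurka fell by 1.14 and Tpx2 by 1.03. With the mimic 6 fell and 2 rose, led by Cdc20 (-0.41) and Plk1 (-0.38), and without mimic replicate 2 the counts were 4 lower and 3 higher. All 20 stood higher without overlap in mimic control over high glucose (median 2.14), in inhibitor control over high glucose (2.12) and in high glucose over vehicle (0.61), against 39.8%, 40.7% and 16.3% of all genes. In high glucose over vehicle Nusap1 was at 0.95 and Cenpf at 0.85. These last comparisons share libraries and are descriptions.

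**Figure D4:**
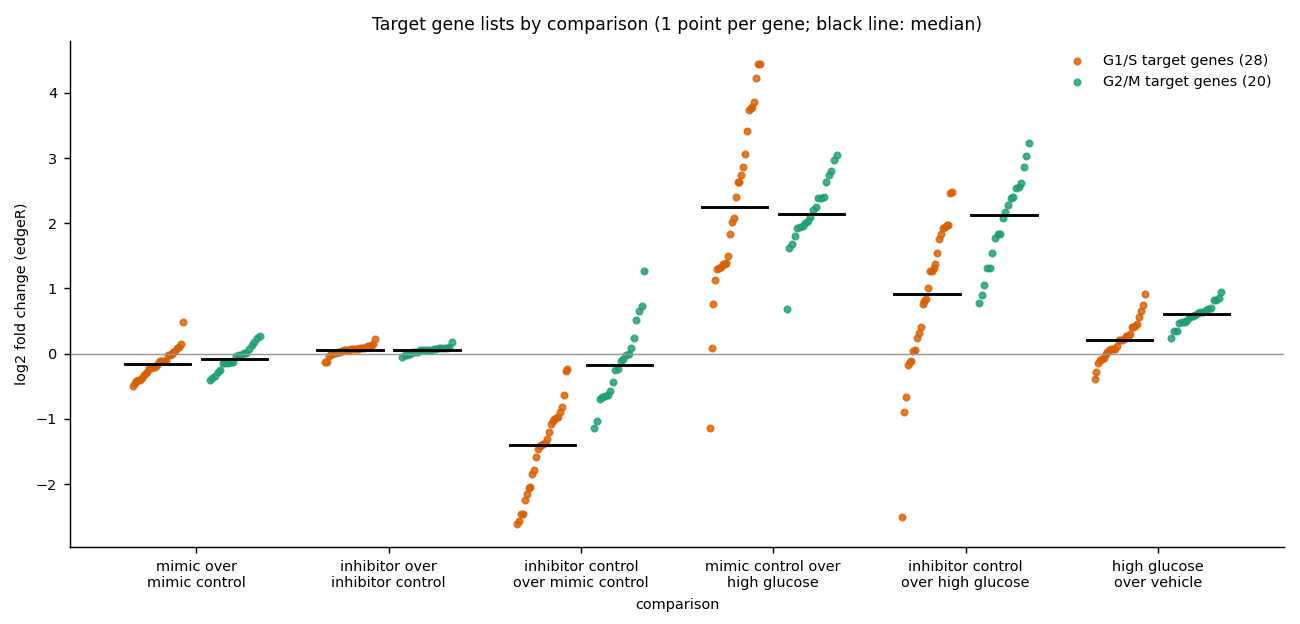
Log2 fold change (edgeR) of 28 G1/S and 20 G2/M target genes in 6 comparisons; each point is a gene and the black line the median of the list. The G1/S genes lie below 0 throughout in inhibitor control over mimic control (median -1.39), where the G2/M genes fall on both sides of 0 (-0.17).

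The partners and regulators of the members were read in the same way. Tfdp2, a dimerisation partner of E2f1 to E2f6, rose with the mimic (0.37 ± 0.066, adjusted p = 0.000343 by edgeR) and in inhibitor control over mimic control (0.57), while Tfdp1, the main partner, was at 0.04 and 0.03. Tfdp2 was also called without mimic replicate 2 (0.36). In both controls over high glucose Tfdp1 was higher (1.17 and 1.20) and Tfdp2 lower (-1.70 and -1.13). Of 8 G1 cyclins and kinases, which phosphorylate pocket proteins, 4 fell and 1 rose with the mimic, with Ccnd1 at -0.29, Ccnd3 at -0.22, Cdk4 and Cdk2 at -0.17, and Ccne2 at 0.49. Without mimic replicate 2, 2 fell and 1 rose. All 8 fell in inhibitor control over mimic control, from -0.23 (Ccne2) to -1.37 (Ccne1).

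Of 7 CDK inhibitors, 5 were tested. Cdkn1a, encoding p21, fell with the mimic (-0.61 ± 0.05, adjusted p = 4.03e-07 by edgeR) and Cdkn1b, encoding p27, rose (0.28 ± 0.05, adjusted p = 0.000363), and both calls held without mimic replicate 2. Both also differed between mimic and inhibitor effects, by -0.63 (adjusted p = 0.000103) and 0.29 (0.00973). Cdkn1a was at 136, 121 and 124 CPM with mimic and 200, 188 and 194 CPM in mimic control, with no overlap. In inhibitor control over mimic control Cdkn1a fell by 1.73 and Cdkn1b rose by 1.27. Cdkn2a and Cdkn2b, whose products p16 and p15 inhibit the cyclin D kinases, had at most 3 reads in any group and were not tested.

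Of 8 genes of the MuvB core, DREAM and the late activators, Rbl2 rose with the mimic (0.39 ± 0.088, adjusted p = 0.00217 by edgeR), and Lin37 (-0.43) and Mybl2 (-0.40), the gene for B-Myb, fell. Without mimic replicate 2, 2 rose and 2 fell. In inhibitor control over mimic control Rbl2 rose by 1.24 and the other 7 fell, led by Mybl2 (-2.10) and Lin37 (-1.36). Mybl2 was at 26.4, 24.4 and 27.3 CPM with mimic, 35.3, 34.0 and 34.0 CPM in mimic control, 8.13, 8.65 and 8.39 CPM with inhibitor, 8.64, 7.52 and 7.86 CPM in inhibitor control, 2.16, 2.14 and 1.87 CPM in high glucose, and 1.53, 1.37 and 1.67 CPM in vehicle. Inhibitor and inhibitor control overlapped each other and lay between the mimic groups and the untransfected libraries. Mybl2 and Rbl1, both known E2F targets, were highest in the same groups, mimic and mimic control. Ccne1 of the G1/S list differed, at 16.2 to 19.7 CPM in high glucose and vehicle and 6.53 to 8.66 CPM in mimic and mimic control.

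Of 7 polycomb partners of E2f6, Cbx3 (0.30) and Rnf2 (0.16) rose and L3mbtl2 (-0.39) fell with the mimic, where 15.8% and 18% of all genes did. Rnf2 was at the edge (adjusted p = 0.0435 by edgeR) and was not called without mimic replicate 2 (0.0668). Between the controls 2 rose and 4 fell, led by L3mbtl2 (-1.37) and Pcgf6 (-1.17), where 38.5% and 35.7% of all genes did. Of the 5 germline genes listed as silenced by E2f6 in mouse somatic cells, 0 passed the filter, and Tuba3a had 15 reads over the 3 mimic control libraries. Of 6 tested apoptosis genes bound by E2F1, 1 rose and 1 fell with the mimic, where 15.8% and 18% of all genes did. The gene that fell was Bcl2l11 (-0.35, and -0.50 without mimic replicate 2). In inhibitor control over mimic control 0 rose and 3 fell, Bbc3 among them (-0.46), where 38.5% and 35.7% of all genes did. Of 10 cofactors, 3 rose and 3 fell with the mimic, and 2 rose and 2 fell without mimic replicate 2, where 15.8% and 18% of all genes did with all libraries. Among them were Smarca4, a chromatin remodelling ATPase that binds pocket proteins, at -0.35, and Kdm5a, a demethylase that binds Rb, at 0.28. In inhibitor control over mimic control Smarca4 fell by 1.24 and Kdm5a rose by 0.64. No gene of these lists was called with the inhibitor.

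The protein-coding genes whose 6 group means of log2 CPM, with a small pseudocount and each gene centred on its own mean, lay closest to those of E2f4 were Arhgap19, Rabl3, Ckap2, Crlf3 and Enoph1, at root mean square differences of 0.146 to 0.167. Crlf3 averaged 75.9 CPM with mimic, 66.7 CPM in mimic control, 67.9 CPM with inhibitor, 70.1 CPM in inhibitor control, 62.0 CPM with high glucose alone and 32.7 CPM with vehicle. Closest to E2f1 were Hoxb4, Tef, Cltb, Sirpa and Gss, at 0.1 to 0.122. Cltb, a clathrin light chain, averaged 437 CPM with mimic, 546 CPM in mimic control, 186 CPM with inhibitor, 192 CPM in inhibitor control, 735 CPM with high glucose alone and 738 CPM with vehicle. The likeness is over 6 group means and carries no test.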

How the data were processed

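RNA was measured in 18 libraries, and the authors deposited raw read counts per gene and FPKM values. Per the labels' protocols, reads were trimmed with FASTX-Toolkit 0.0.13, aligned to GRCm39 with HISAT2 with up to 4 mismatches, and uniquely mapped reads were counted. DESeq2 is also named in the submitters' processing notes, with no role given. The counting program, annotation release and strand setting are not given in the sources used here, so reads of genes that overlap on opposite strands may be shared.

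The deposited counts were tested in edgeR 4.0.16 (R 4.3.3). Low genes were removed with filterByExpr (minimum count 10, minimum total 15), libraries were scaled by TMM, and all 18 libraries entered a quasi-likelihood fit with a mean for each group and 12 residual degrees of freedom. Benjamini-Hochberg adjustment ran over 15074 genes, and an adjusted p under 0.05 is a call. SE is the standard error of a log2 fold change. Levels are CPM scaled by TMM, and shares use the FPKM values the authors deposited. The floor of 3 reads covers counting error only. Libraries of a group differed by more than counting noise (chi-square per degree of freedom 4.36 to 26.2). The fit was tested on simulated data. Alternatives were DESeq2 1.42.0 and its size factors, upper quartile scaling, no filter, the compared groups alone, the replicate number as a block, limma 3.58.1 on log2(FPKM + 1) and log2(FPKM + 0.1), and leaving out each library, 26 in all.

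The members and gene lists were chosen with earlier results of these data known. All 10 members are named, up to 4 called genes with the largest change per list and comparison (2 with the smallest p where none was called), and the 5 genes most like E2f4 and E2f1. Rbis, Lpar6 and Rcbtb2 were named after their overlap with members was seen. The result of 1 listed gene is not reported here.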

Additional observations from a re-analysis of the deposited data

Results flagged for a closer look

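E2f4 was marked because the effect of the mimic and that of the inhibitor, each over its own control, differed by a test of the difference itself. The difference of the log2 fold changes was 0.25 (SE 0.067, adjusted p = 0.019 by edgeR's quasi-likelihood test over 15074 genes). E2f4 was higher in all 3 mimic libraries, at 49.97 to 54.9 CPM, than in all 3 mimic control libraries, at 44.1 to 45.2 CPM. The inhibitor libraries, at 41.5 to 42.8 CPM, overlapped the inhibitor control libraries, at 40.3 to 44.6 CPM. Over the 26 alternative settings the difference was 0.21 to 0.32, and it was not called in 4 of them.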

How the results depend on the processing

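In the mimic comparison 1 member rather than 2 was called lower with upper quartile scaling and with limma at both pseudocounts, and 1 to 2 when each library was left out. For the difference of mimic and inhibitor effects, 1 member was called lower with DESeq2 size factors, with DESeq2, without the filter (then 0 higher) and with the compared groups alone (then 2 higher). Leaving out each library gave 0 to 1 in each direction, and 5 to 6 members lower between the controls. The cause was not tested. The log2 difference of E2f4 between high glucose and vehicle was 0.92 with log2(FPKM + 1), and 1.02 to 1.05 when each library was left out. Between mimic control and high glucose it was 0.24 with log2(FPKM + 1) and 0.25 with log2(FPKM + 0.1). Leaving out each library gave 0.40 to 0.44 for it and 0.29 to 0.37 between inhibitor control and high glucose. From summed CPM, which is not per length, the activating to repressive ratio was 0.649 with mimic, 0.796 in mimic control, 0.639 with inhibitor, 0.592 in inhibitor control, 1.03 in high glucose and 1.12 in vehicle. The alternatives covered such counts, the E2f4 differences and the ratios. Of their values, 281 stayed within the replicate spread or within 1.5 times the count, and 29 moved further. For the ratios, leaving out a library cannot shift the group mean beyond the replicate spread, so those values could not count as moved. The other ratio alternative, summed CPM, moved further in every group. The tally is thus no measure of how stable the ratios are. Much the same holds for the E2f4 differences when a library was left out. They were judged against the replicate spread of both groups, which leaving out a library can hardly exceed.

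With the replicate number as a block, 2 members rose and 2 fell with the mimic, 0 were called with the inhibitor, 3 rose and 5 fell between the controls, and 1 was higher in the difference of effects. Over all genes, 2228 rose and 2655 fell with the mimic in that fit, and 0 were called with the inhibitor. Between the controls 5780 rose and 5366 fell, and 591 had a higher and 1225 a lower difference of effects. The block gave E2f4 log2 differences of 1.03 (high glucose over vehicle), 0.42 (mimic control over high glucose) and 0.34 (inhibitor control over high glucose). It changed no member's call. Libraries that share only a number deviated together at correlations of -0.141 to 0.0872.

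Upper quartile scaling moved the median log2 fold change of all genes between the controls to 0.15, from 0.04, and limma with log2(FPKM + 0.1) moved it by -0.14 between mimic control and high glucose. Over all genes, the count of higher differences between effects was 698, and 1201 without the filter, 1310 with the compared groups alone and as low as 319 without inhibitor control replicate 3. The lower count was 1295, and 837 or 617 with limma. The mimic called 2712 genes lower, and 1651 with limma at the smaller pseudocount. The inhibitor called 13 genes higher and 13 lower without the filter and 1 lower with its 2 groups alone.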
